A study of Mus musculus with 36 samples.

Results

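The genes described here are 44 listed neighbours of Gpt2 on mouse chromosome 8, picked by symbol as genes lying within roughly 5 Mb of it. Gpt2, which encodes the mitochondrial alanine transaminase, was the gene knocked out in the mice of this study. The symbols came with a genotype comparison in view and with earlier results of these libraries known. Differences between knockouts and wild types are therefore given as a description, without p-values, and nothing is read from how many of the listed genes passed. By the GENCODE annotation of GRCm38, 42 of the 44 lie within 5 Mb of Gpt2. The exceptions were Stx10, which was not analysed here, and Shcbp1, which that annotation places 80.7 Mb before Gpt2. Rows for 43 of the 44 genes were found among the 56184 symbols of the count table, and 40 of them were among the 16255 genes with enough counts to be fitted. The 3 rows left out by the filter on low counts were Shcbp1, with 0 to 7 counts per library, Rtbdn, likewise with 0 to 7, and Mylk3, with 0 to 18.

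The study measured polyadenylated RNA by 3' tag sequencing in 36 pieces of mouse brain, 10 mg of tissue each, taken on postnatal day 19. Gpt2 knockout mice given dm-αKG gave 8 libraries, Gpt2 knockouts given vehicle 10, Gpt2 wild types given dm-αKG 8 and wild types given vehicle 10. The substance dm-αKG is a dimethyl ester of α-ketoglutarate that enters cells more readily than the free acid, and it was injected into the peritoneum at 600 mg per kg. The design text calls the samples of a group biological replicates. Neither the kind of Gpt2 allele nor its strain of origin nor the animals' sex is stated in the labels. Of the sex markers, Xist was above Ddx3y in 4 of 8 dm-αKG knockouts and 5 of 8 dm-αKG wild types. Under vehicle this held in 2 of 10 knockouts and 2 of 10 wild types, so the markers were unevenly spread over the treatments. Library totals lay between 5.77M and 13.3M counts (median 11.4M).

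A gene that lies close to a targeted allele is inherited together with it. Homozygous knockouts then carry the DNA around the targeted gene from the chromosome on which the allele was made. Loss of the enzyme and the linked DNA change together with genotype, and in these libraries they cannot be told apart. GPT2 protein turns pyruvate and glutamate into alanine and α-ketoglutarate, and the enzyme is known for its part in brain growth and glutamate metabolism. The neighbours have no common function: they include a calcium channel subunit, a cytokine, parts of the mitochondrial ribosome and the retromer, and enzymes of glycogen, lysine and tRNA metabolism.

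These 4 start regions are printed because they belong to genes that the results turn on. Scoc, Hook2 and Wdr83os were higher in knockouts under both treatments, and Phkb starts head to head with a gene that did not move with it. Each window runs from 250 bases before to 50 bases after the RefSeq start (GRCm38.p6), is written 5′ to 3′ on the strand of the gene, and has the 50 bases after the start in capitals.
Scoc, chr8:83458347-83458646, minus strand: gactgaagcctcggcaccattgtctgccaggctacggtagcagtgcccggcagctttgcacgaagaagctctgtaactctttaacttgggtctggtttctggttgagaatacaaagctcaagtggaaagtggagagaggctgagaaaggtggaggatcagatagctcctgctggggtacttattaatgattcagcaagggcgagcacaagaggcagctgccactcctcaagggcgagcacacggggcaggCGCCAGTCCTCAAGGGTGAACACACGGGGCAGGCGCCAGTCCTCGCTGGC
Hook2, chr8:84990373-84990672, plus strand: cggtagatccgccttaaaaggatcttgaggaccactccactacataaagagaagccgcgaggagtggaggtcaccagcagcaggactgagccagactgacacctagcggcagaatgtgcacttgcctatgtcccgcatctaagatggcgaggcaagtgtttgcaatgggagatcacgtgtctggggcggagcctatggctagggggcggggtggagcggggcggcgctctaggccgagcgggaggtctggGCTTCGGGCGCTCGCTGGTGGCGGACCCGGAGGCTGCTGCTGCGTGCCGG
Wdr83os, chr8:85080713-85081012, plus strand: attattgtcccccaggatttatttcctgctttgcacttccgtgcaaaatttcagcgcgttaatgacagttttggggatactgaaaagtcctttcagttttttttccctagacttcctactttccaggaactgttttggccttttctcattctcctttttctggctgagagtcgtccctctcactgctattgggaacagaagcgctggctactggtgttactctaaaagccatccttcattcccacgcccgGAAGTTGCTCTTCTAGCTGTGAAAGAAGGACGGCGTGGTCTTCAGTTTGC
Phkb, chr8:85840738-85841037, plus strand: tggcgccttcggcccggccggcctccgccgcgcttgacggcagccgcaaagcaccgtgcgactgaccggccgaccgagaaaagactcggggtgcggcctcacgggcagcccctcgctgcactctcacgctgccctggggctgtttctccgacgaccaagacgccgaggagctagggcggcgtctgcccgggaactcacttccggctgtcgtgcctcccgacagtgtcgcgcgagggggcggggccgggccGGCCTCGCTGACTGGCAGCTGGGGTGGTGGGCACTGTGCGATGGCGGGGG
The Wdr83os window had the lowest GC content of the 4, 46%, and the Phkb window the highest, 73.3%. RefSeq windows were matched for 35 of the 44 listed genes by symbol, and their median GC content was 57%, against 52.7% over all windows. A pair of motifs was searched on both strands of these windows. Il15, Gadd45gip1, Trmt1, Rnf150, Cacna1a, Nacc1, Vps35, Stx10 and Shcbp1 had no window and were not searched. Several of these genes were past the threshold between genotypes, as given below. The letters TGATGCAA, an element read by ATF4, the transcription factor of the amino acid response, were in none of the 35 genes' windows and in 1.03% of the 27025 genes with a window. The letters TGACGTCA, the cAMP response element, were in 1 of the 35, Fbxw9, and in 2.03% of all. These matches describe letters in a window and no binding.

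Gpt2 itself (chr8:85492576-85527560, plus strand) separated the libraries by their labels. Its lowest, median and highest levels, in CPM (counts scaled to library size with TMM, a level not corrected for transcript length), were 1.12, 2.52 and 3.18 CPM in dm-αKG knockouts and 0.881, 1.79 and 3.304 CPM in vehicle knockouts, against 26.3, 31.9 and 38.1 CPM in dm-αKG wild types and 22.04, 29.8 and 39.03 CPM in vehicle wild types. No knockout library overlapped a wild-type library. On the log2 scale the difference between knockouts and wild types was -3.77 (SE 0.20) under dm-αKG and -3.90 (SE 0.18) under vehicle.

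A few libraries had much higher cerebellum markers than the rest, and for several neighbours below the difference is also given without those libraries. With a 20-gene cerebellum marker score over 1 log2 unit higher than the average library, these were 1 of 8 dm-αKG knockouts, 1 of 10 vehicle knockouts, 4 of 8 dm-αKG wild types and 3 of 10 vehicle wild types. The score averaged 3.36 ± 1.34 in dm-αKG knockouts, 3.26 ± 1.64 in vehicle knockouts, 4.43 ± 2.32 in dm-αKG wild types and 4.52 ± 1.83 in vehicle wild types (mean log2 CPM ± SD, n = 8, 10, 8 and 10). The summed level of the 20 markers ran from 206 to 6438 CPM in knockouts and from 218 to 5878 CPM in wild types. Of these markers 1 was past the threshold averaged over treatments, lower in knockouts, and those at 0 in at least 1 library were 2 in dm-αKG knockouts, 1 in vehicle knockouts, 1 in dm-αKG wild types and 0 in vehicle wild types. Of 12 fitted hypothalamus markers 4 were past the threshold averaged, each higher in knockouts, and 2 were past it under dm-αKG. Their score averaged 2.43 ± 1.64 in dm-αKG knockouts and 1.29 ± 1.68 in vehicle knockouts, against 0.70 ± 1.07 in dm-αKG wild types and 0.66 ± 1.32 in vehicle wild types (mean log2 CPM ± SD, n = 8, 10, 8 and 10). Of 10 astrocyte markers 2 were past it averaged, each lower in knockouts. The cerebellum and hypothalamus scores were among the 5 region scores fitted as covariates, and the part of the astrocyte markers in the differences was not tested. In pieces of tissue, a smaller share of a cell type and less RNA per cell of that type cannot be told apart.

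A gene counts as past the threshold when its p from edgeR's quasi-likelihood test, adjusted over all 16255 genes by Benjamini and Hochberg, was under 0.05. Averaged over both treatments, 18 of the 40 were past it, 13 higher and 5 lower in knockouts. Over all genes the share past it was 11.9%, with 5.7% higher and 6.17% lower. Under dm-αKG alone 5 of the 40 were past it, each of them higher and 0 lower, where all genes gave 1.87%, with 1.12% higher and 0.751% lower. Under vehicle alone 10 were past it, 8 higher and 2 lower, where all genes gave 4.31%, with 2.6% higher and 1.72% lower. Scaling by library totals alone gave 12 higher and 1 lower averaged over treatments, where 1429 of the 16255 genes were past the threshold. That scaling moved the median log2 difference of all genes under dm-αKG to 0.14, from -0.02 with TMM.

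Averaged over treatments, the group of membrane traffic and nuclear import had 2 of 4 fitted genes higher and 1 lower. Higher were 2 of 4 in mitochondrion, peroxisome and redox, 2 of 5 in nucleic acids and 7 of 10 in the mixed rest. Of the 10 fitted genes of transcription, chromatin and ubiquitin 2 were lower, of the 5 of kinases and signalling 1 was lower, and of the 2 channel and receptor genes 1 was lower. Over all genes 5.7% were higher and 6.17% lower. The role groups were set by hand within the list, so these counts say nothing about such roles over all genes. The median size of the averaged log2 difference, regardless of sign, was 0.25 over the 40 and 0.16 over all genes. In sign alone the 40 were near even, with 19 above and 21 below 0.

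Among the neighbours, 4 were past the threshold in every fit that was run: Wdr83os, Gadd45gip1, Scoc and Il15 stayed past the threshold under dm-αKG and under vehicle in each of the 36 fits that left out 1 library and in each of 11 other settings.

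Wdr83os (chr8:85080740-85082339, plus strand) encodes a small membrane protein of the endoplasmic reticulum that helps to insert proteins with several membrane spans. Its lowest, median and highest levels were 22.6, 31.7 and 34.1 CPM in dm-αKG knockouts and 24.9, 27.2 and 34.96 CPM in vehicle knockouts, against 11.03, 15.5 and 18.5 CPM in dm-αKG wild types and 9.13, 13.7 and 18.9 CPM in vehicle wild types. Every knockout library was above every wild-type library. The log2 difference was 1.02 (SE 0.12) under dm-αKG and 1.13 (SE 0.11) under vehicle, and the averaged difference of 1.07 (SE 0.08) is a 2.1-fold higher level. Before rounding its count was not whole in 20 of the 36 libraries, and the cause was not tested. Among the genes past the threshold throughout, Scoc had such counts in 30 libraries, Gadd45gip1 in 9 and Il15 in 0. Other neighbours had them as well, among them Prdx2 in 20 and Phkb in 19.

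Gadd45gip1 (chr8:84831522-84835482, plus strand), also called CRIF1, is a protein of the large mitochondrial ribosomal subunit. Its lowest, median and highest levels were 43.1, 51.2 and 62.5 CPM in dm-αKG knockouts and 39.9, 42.7 and 50.8 CPM in vehicle knockouts. They were 28.4, 32.7 and 36.6 CPM in dm-αKG wild types and 24.3, 29.4 and 30.7 CPM in vehicle wild types. Here too the knockout libraries all lay above the wild-type libraries, and the fold was 1.57 averaged over treatments. Its log2 difference was 0.69 (SE 0.08) under dm-αKG and 0.61 (SE 0.07) under vehicle. Over all genes, only 18, or 0.111%, 0.0923% upward, kept all knockouts apart from all wild types in this way, and Wdr83os and Gadd45gip1 were the 2 of the 40 neighbours among them. Under dm-αKG alone 5 of the 40 did not overlap between genotypes, each higher in knockouts, where all genes gave 0.603%, 0.412% upward, and under vehicle alone 2 had no overlap, where all genes gave 0.277%, 0.24% upward.

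Scoc (chr8:83430084-83458391, minus strand), a short coiled-coil protein of the Golgi with a part in autophagy, gave 87, 97.6 and 135 CPM in dm-αKG knockouts and 73.7, 97.9 and 107 CPM in vehicle knockouts. The wild-type values were 53.7, 66.1 and 75.02 CPM in dm-αKG wild types and 47.4, 66.7 and 80.5 CPM in vehicle wild types. Under dm-αKG the genotypes did not overlap, and under vehicle the lowest knockout lay within the wild-type range. Its log2 difference was 0.63 (SE 0.11) under dm-αKG and 0.57 (SE 0.09) under vehicle.

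Il15 (chr8:82331632-82403222, minus strand), the cytokine that sustains natural killer and memory T cells, was the lowest in level of the 40 and the one with the largest averaged fold, 2.26. Knockout levels were 1.13, 1.76 and 1.99 CPM in dm-αKG knockouts and 0.771, 1.72 and 2.55 CPM in vehicle knockouts. Wild-type levels were 0.335, 0.698 and 1.09 CPM in dm-αKG wild types and 0.286, 0.776 and 1.03 CPM in vehicle wild types. Under dm-αKG the genotypes did not overlap, and under vehicle the lowest knockout lay within the wild-type range. A value this low rests on few reads: single libraries held 3 to 29 counts, 484 in all. The log2 difference was 1.19 (SE 0.24) under dm-αKG and 1.17 (SE 0.21) under vehicle, and Il15 is also the fitted listed gene farthest before Gpt2, at 3.09 Mb.

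**Figure D1:**
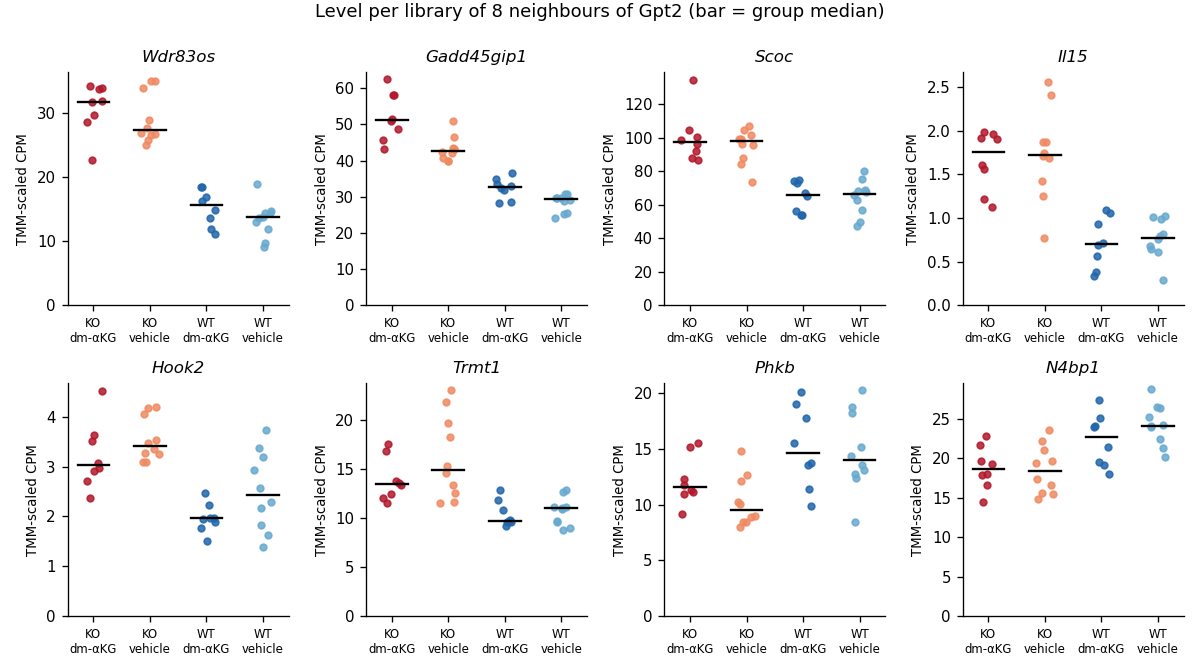
Level of 8 neighbours in each library, in TMM-scaled CPM, on linear axes that start at 0. Points are libraries, black bars are group medians, and groups run from dm-αKG and vehicle knockouts (n = 8 and 10) to dm-αKG and vehicle wild types (n = 8 and 10). Wdr83os and Gadd45gip1 show no overlap between the genotypes, and the medians of Phkb and N4bp1 are lower in knockouts under both treatments.

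Hook2 (chr8:84990603-85003349, plus strand), an adaptor of microtubule motors at the centrosome, was the fifth gene past the threshold under both treatments. It measured 2.37, 3.02 and 4.51 CPM in dm-αKG knockouts and 3.08, 3.42 and 4.195 CPM in vehicle knockouts, against 1.501, 1.96 and 2.47 CPM in dm-αKG wild types and 1.38, 2.43 and 3.74 CPM in vehicle wild types. The genotypes overlapped under each treatment. With log2 differences of 0.70 (SE 0.17) under dm-αKG and 0.50 (SE 0.14) under vehicle, it kept its place under dm-αKG in each of the 36 fits without 1 library but under vehicle in 24 of them. The vehicle call was lost, at differences of 0.43 to 0.52, without library 2, 4, 5, 8, 9 or 10 of the vehicle knockouts or library 1, 2, 4, 5, 6 or 9 of the vehicle wild types. Over the 11 other settings the call held in 9 under dm-αKG and in 4 under vehicle. Without the 9 libraries high in cerebellum markers it held under neither treatment, at 0.50 and 0.33. Calls under both treatments were found for these 5 neighbours, 12.5% of the 40, and for 152 genes in all, 0.935%.

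Another 3 genes were higher under vehicle and when averaged. Trmt1 (chr8:84686307-84699808, plus strand), which methylates guanosine in tRNA, had 11.5, 13.4 and 17.5 CPM in dm-αKG knockouts and 11.5, 14.9 and 22.99 CPM in vehicle knockouts, against 9.19, 9.72 and 12.8 CPM in dm-αKG wild types and 8.76, 10.95 and 12.8 CPM in vehicle wild types. Under each treatment the lowest knockouts lay within the wild-type range. Its log2 difference was 0.41 (SE 0.13) under dm-αKG and 0.59 (SE 0.12) under vehicle. Rnf150 (chr8:82863356-83091268, plus strand), a membrane protein with a RING finger, had 9.604, 15.2 and 18.2 CPM in dm-αKG knockouts and 7.54, 19.8 and 27.5 CPM in vehicle knockouts, against 6.57, 9.88 and 13.4 CPM in dm-αKG wild types and 6.53, 12.8 and 14.9 CPM in vehicle wild types. For it the log2 difference was 0.57 (SE 0.21) under dm-αKG and 0.73 (SE 0.18) under vehicle, with overlap of single libraries, and without the 9 libraries high in cerebellum markers it was 0.39 and 0.61. Orc6 (chr8:85299632-85308278, plus strand), a subunit of the origin recognition complex of DNA replication, had 29.5, 34.1 and 39.8 CPM in dm-αKG knockouts and 27.2, 34.8 and 41.8 CPM in vehicle knockouts, against 25.8, 32.4 and 35.97 CPM in dm-αKG wild types and 21, 26 and 31.4 CPM in vehicle wild types. There the log2 difference was 0.15 (SE 0.10) under dm-αKG and 0.40 (SE 0.09) under vehicle, and only the vehicle wild types had a median under 30 CPM. Over the 11 other settings the vehicle call held in 11 for Trmt1, 10 for Rnf150 and 8 for Orc6.

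A further 5 genes were higher only once the treatments were averaged, each by less than 0.4 log2 units. Prdx2 (chr8:84969587-84974834, plus strand), a peroxiredoxin that removes hydrogen peroxide in the cytosol, had 189, 199.6 and 241 CPM in dm-αKG knockouts and 114, 163 and 217 CPM in vehicle knockouts, against 152, 167 and 184 CPM in dm-αKG wild types and 127, 147 and 187 CPM in vehicle wild types. Under dm-αKG its genotypes did not overlap, and under vehicle they did. The averaged log2 difference was 0.28 (SE 0.07). Dhps, deoxyhypusine synthase, had 30.5, 32.9 and 35.3 CPM in dm-αKG knockouts and 27.7, 32.9 and 36.6 CPM in vehicle knockouts, against 22.6, 27.04 and 36.7 CPM in dm-αKG wild types and 23.9, 27.7 and 35.3 CPM in vehicle wild types, an averaged difference of 0.22 (SE 0.06). Man2b1, the lysosomal α-mannosidase, had 10.9, 14.8 and 18.8 CPM in dm-αKG knockouts and 11.9, 16.5 and 18.2 CPM in vehicle knockouts, against 9.697, 12.5 and 15.7 CPM in dm-αKG wild types and 9.302, 12.4 and 17.3 CPM in vehicle wild types, an averaged difference of 0.28 (SE 0.09). In both genes the genotypes overlapped widely, and each knockout median lay within the wild-type range.

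The adjacent genes Cnep1r1 and Heatr3 lay 2.59 and 2.61 Mb after Gpt2. Cnep1r1, a regulatory subunit of a phosphatase of lipid synthesis, had 25.8, 30.5 and 35.3 CPM in dm-αKG knockouts and 23, 28.9 and 42.6 CPM in vehicle knockouts, against 20.4, 23.2 and 28.05 CPM in dm-αKG wild types and 17.7, 24.4 and 34.7 CPM in vehicle wild types. Heatr3, a HEAT-repeat protein with a part in making ribosomes, had 7.11, 9.89 and 16.5 CPM in dm-αKG knockouts and 5.93, 10.1 and 12.7 CPM in vehicle knockouts, against 5.48, 7.27 and 9.47 CPM in dm-αKG wild types and 7.06, 7.504 and 15.3 CPM in vehicle wild types. Averaged log2 differences were Cnep1r1 0.33 (SE 0.08) and Heatr3 0.36 (SE 0.12), again with overlap of the genotypes.

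Among the genes that were lower, Phkb and N4bp1 were past the threshold under vehicle and when averaged. Phkb (chr8:85840959-86061376, plus strand), a subunit of the phosphorylase kinase that starts glycogen breakdown, had 9.17, 11.6 and 15.6 CPM in dm-αKG knockouts and 8.04, 9.52 and 14.8 CPM in vehicle knockouts, against 9.87, 14.6 and 20.1 CPM in dm-αKG wild types and 8.44, 13.98 and 20.3 CPM in vehicle wild types. The genotypes overlapped widely under both treatments, and each knockout median lay within the wild-type range. Its log2 difference was -0.32 (SE 0.16) under dm-αKG and -0.52 (SE 0.14) under vehicle. Without the 9 libraries high in cerebellum markers the difference was 0.04 under dm-αKG and -0.39 under vehicle. Its vehicle call was lost, at differences of -0.50 to -0.46, without library 1, 2 or 10 of the vehicle knockouts or library 1, 6 or 9 of the vehicle wild types, and it held in 5 of the 11 other settings. N4bp1 (chr8:86808160-86885258, minus strand), a ribonuclease that restrains immune signalling, had 14.4, 18.6 and 22.9 CPM in dm-αKG knockouts and 14.9, 18.4 and 23.6 CPM in vehicle knockouts, against 18, 22.7 and 27.4 CPM in dm-αKG wild types and 20.2, 24.1 and 28.8 CPM in vehicle wild types, again with overlap. The difference here was -0.25 (SE 0.11) under dm-αKG and -0.39 (SE 0.09) under vehicle, and -0.33 and -0.37 without the same 9 libraries, and its vehicle call held in 8 of the 11 other settings.

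Cacna1a (chr8:84388440-84640246, plus strand), the pore subunit of the P/Q-type calcium channel and abundant in Purkinje cells, had the largest averaged difference downward among genes past the threshold, -0.86 (SE 0.25). It had 36.4, 48.8 and 95.03 CPM in dm-αKG knockouts and 42.9, 65.02 and 198 CPM in vehicle knockouts, against 43.7, 77.6 and 206 CPM in dm-αKG wild types and 42.9, 75.9 and 306 CPM in vehicle wild types. In each knockout group 1 library stood far above the rest, and in each wild-type group several did. The genotypes overlapped under both treatments, with the highest wild types above every knockout. Its difference was -1.10 (SE 0.38) under dm-αKG and -0.63 (SE 0.34) under vehicle, with neither past the threshold. Fitted beside 5 brain region scores it was -0.24 under dm-αKG and -0.01 under vehicle, and without the 9 libraries high in cerebellum markers -0.38 and -0.07.

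The remaining lower genes were Tnpo2 and Dcaf15. Tnpo2, a transportin of nuclear import, had 28.1, 34.5 and 47.01 CPM in dm-αKG knockouts and 26.9, 44.3 and 59.8 CPM in vehicle knockouts, against 35.7, 44.3 and 72.8 CPM in dm-αKG wild types and 38.9, 58.03 and 74.5 CPM in vehicle wild types, an averaged log2 difference of -0.37 (SE 0.11). Its difference was -0.43 (SE 0.17) under dm-αKG and -0.31 (SE 0.15) under vehicle, and -0.71 and -0.38 without the 9 libraries high in cerebellum markers. Dcaf15, a substrate receptor of a CUL4 ubiquitin ligase, had 6.52, 7.66 and 9.47 CPM in dm-αKG knockouts and 5.81, 7.75 and 11.2 CPM in vehicle knockouts, against 7.702, 9.64 and 10.7 CPM in dm-αKG wild types and 7.595, 10.1 and 15.4 CPM in vehicle wild types, an averaged difference of -0.28 (SE 0.09). For both genes the medians were lower in knockouts under each treatment and the genotypes overlapped. Their knockout medians lay within the wild-type range under vehicle and just below the lowest wild type under dm-αKG.

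Of the 3 fitted neighbours nearest to Gpt2 on the side before it, Orc6 and Man2b1, given above, were past the threshold averaged over treatments, by 0.28 each, and Vps35 was not. On the side after it Dnaja2, Neto2 and Itfg1 were not past it. Dnaja2, an Hsp40 co-chaperone that lies 0.0101 Mb after Gpt2, had 130.0, 146 and 199 CPM in dm-αKG knockouts and 141, 154 and 211 CPM in vehicle knockouts, against 107, 122 and 160.0 CPM in dm-αKG wild types and 105, 139.7 and 318 CPM in vehicle wild types. Its averaged log2 difference was 0.14 (SE 0.10) and not past the threshold. Neto2, an auxiliary subunit of kainate receptors, had 26.4, 34.9 and 43.2 CPM in dm-αKG knockouts and 24.4, 37.8 and 75.4 CPM in vehicle knockouts, against 32.3, 38.8 and 78.05 CPM in dm-αKG wild types and 28.3, 40.05 and 75.2 CPM in vehicle wild types, with -0.34 (SE 0.16) on average. Its log2 difference was -0.50 (SE 0.24) under dm-αKG and -0.17 (SE 0.21) under vehicle, and without the 9 libraries high in cerebellum markers -0.05 and 0.06. Itfg1, a membrane protein with integrin-like repeats, had 80.2, 87.97 and 102 CPM in dm-αKG knockouts and 70.3, 92.5 and 110.0 CPM in vehicle knockouts, against 69.6, 91.2 and 102 CPM in dm-αKG wild types and 72.2, 83.3 and 107 CPM in vehicle wild types, with 0.08 (SE 0.06). Before Gpt2, Vps35, a core subunit of the retromer, had 72.5, 87.9 and 119 CPM in dm-αKG knockouts and 71.4, 83.6 and 143 CPM in vehicle knockouts, against 69.6, 76.2 and 93.2 CPM in dm-αKG wild types and 65, 83.5 and 96.4 CPM in vehicle wild types, with 0.19 (SE 0.08). None of these 4 was past the threshold, and in each the genotypes overlapped.

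Among the other uncalled neighbours of at least 5 CPM, the transcription factors Nfix and Nacc1 had the largest averaged differences beside Neto2. Nfix had 52.3, 83.7 and 192 CPM in dm-αKG knockouts and 89.6, 134 and 153 CPM in vehicle knockouts, against 90.8, 131 and 207 CPM in dm-αKG wild types and 75.7, 153 and 244 CPM in vehicle wild types, and its averaged log2 difference was -0.37 (SE 0.16). Nacc1 had 9.604, 15.3 and 23.1 CPM in dm-αKG knockouts and 12.1, 19.1 and 24.5 CPM in vehicle knockouts, against 15.2, 20.4 and 30.03 CPM in dm-αKG wild types and 10.6, 19.6 and 32.1 CPM in vehicle wild types, with -0.21 (SE 0.12). Dnase2a, a lysosomal nuclease at 3.64 CPM, had a lower value, -0.70 (SE 0.24), which was -0.25 under dm-αKG and -0.07 under vehicle when fitted beside the region scores and 0.05 and -0.20 without the 9 libraries high in cerebellum markers.

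The remaining 15 fitted neighbours had averaged log2 differences between -0.20 and 0.07, none past the threshold. In the signalling group these were Prkaca -0.14 (SE 0.10), Mast1 -0.06 (SE 0.08), Adcy7 -0.00 (SE 0.26) and Nkd1 -0.04 (SE 0.11). Prkaca is a catalytic subunit of protein kinase A, Mast1 a microtubule-associated kinase, Adcy7 an adenylyl cyclase and Nkd1 an inhibitor of Wnt signalling. Transcription, chromatin and ubiquitin genes gave Rfx1 -0.16 (SE 0.13), Cc2d1a -0.01 (SE 0.09), Fbxw9 -0.07 (SE 0.11), Siah1a 0.07 (SE 0.11), Brd7 -0.03 (SE 0.06) and Cyld 0.06 (SE 0.10). Brd7 is a subunit of a SWI/SNF chromatin remodeller and Cyld a deubiquitinase. The values of Gcdh, the glutaryl-CoA dehydrogenase of lysine breakdown, and of the peroxisomal protease Lonp2 were -0.15 (SE 0.08) and -0.15 (SE 0.09). Finally Syce2, a synaptonemal complex protein, the ribonuclease subunit Rnaseh2a and the repeat protein Wdr83 gave -0.13 (SE 0.18), 0.05 (SE 0.08) and -0.20 (SE 0.08).

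**Figure D2:**
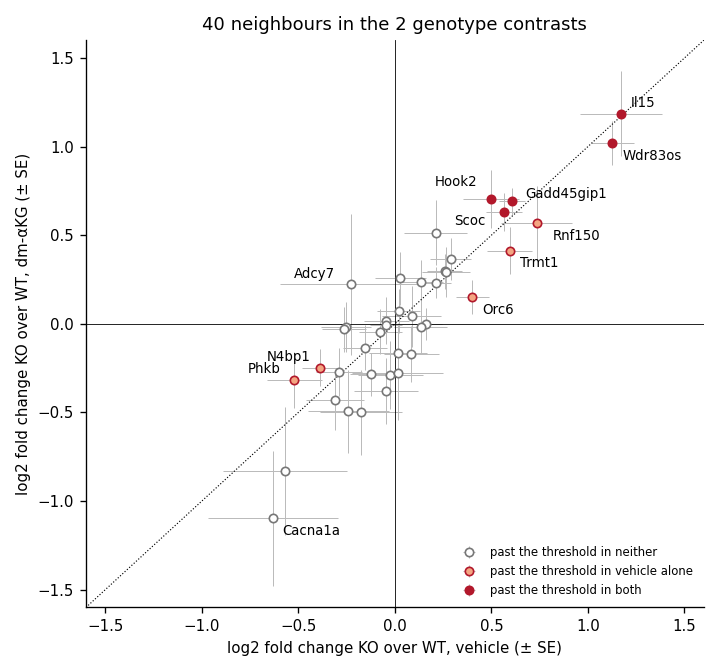
Difference between knockouts and wild types (log2 fold change ± SE) of the 40 fitted neighbours under vehicle on the x axis and under dm-αKG on the y axis; the comparisons share no library. The dotted line marks equal values; 5 genes were past the threshold in both comparisons and 5 under vehicle alone, and Il15 and Wdr83os sit farthest up.

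The 2 genotype comparisons use different libraries, and 33 of the 40 neighbours (82.5%) had the same sign in both, where all genes gave 67.8%. The list came with earlier results of these libraries known, so this share is a description and no replication. Adjacent neighbours did not share a sign as a rule: of 39 pairs of genes next to each other in the list, 21 had the same sign of the averaged difference. Among the listed genes, 4 pairs start within 1000 bases of each other on opposite strands.

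Wdr83 and Wdr83os form such a pair, and 284 bases of their 300-base RefSeq windows are the same stretch of DNA. Wdr83os was higher in knockouts by 1.07 (SE 0.08) on the averaged log2 scale, and Wdr83, a WD-repeat scaffold protein, had -0.20 (SE 0.08) and was not past the threshold. The log2 ratio of Wdr83os to Wdr83 in single libraries ran from 1.43 to 2.40 in knockouts, with a median of 1.88, and from -0.19 to 1.16 in wild types, with a median of 0.71. This ratio left no overlap between the genotypes.

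Itfg1 and Phkb start 38 bases apart. The log2 ratio of Phkb to Itfg1 ran from -3.64 to -2.36 in knockouts, with a median of -2.95, and from -3.67 to -1.94 in wild types, with a median of -2.53. In the remaining pairs the ratio overlapped widely as well. Rnaseh2a had 0.05 (SE 0.08) beside 0.28 (SE 0.07) of Prdx2, and Vps35 had 0.19 (SE 0.08) beside 0.28 (SE 0.06) of Orc6.

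**Figure D3:**
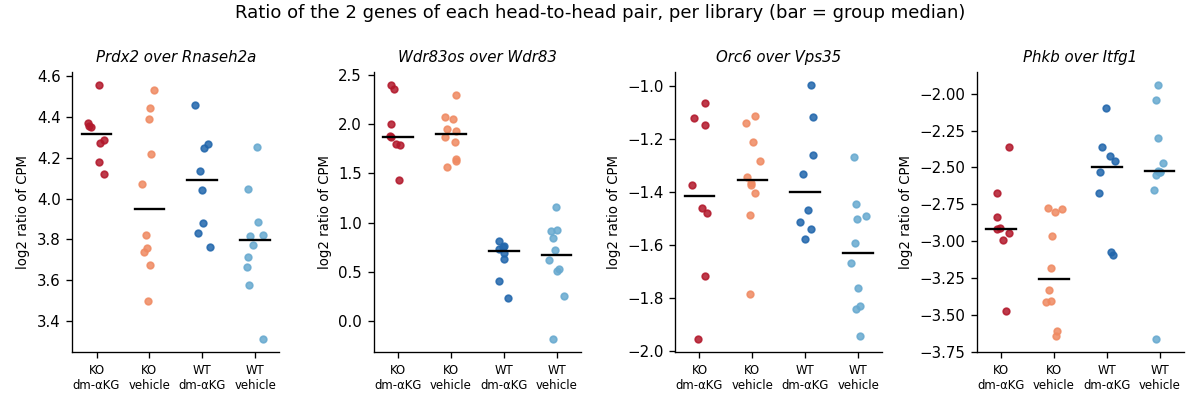
Log2 ratio of the CPM values of 2 genes for 4 pairs, with 1 point per library and a bar at the group median. By GENCODE gene ends, the genes of a pair start within 1000 bases of each other on opposite strands. Knockouts are on the left and wild types on the right of each panel. The ratio of Wdr83os to Wdr83 lies between 1.43 and 2.40 in knockouts and between -0.19 and 1.16 in wild types.

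Some neighbours share exon bases with a gene on the other strand, and the labels do not state which strand setting was used in counting. Of the annotated exon bases of Wdr83os, 52.3% are shared with Wdr83. Dnase2a shares 29.99% with Mast1. Reads from such partners cannot be told apart here.

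Position along the chromosome was then set beside the differences, counting every fitted gene and not the listed ones alone. Under 1 Mb from Gpt2, 13 of 37 genes (35.1%) were past the threshold averaged over treatments, 10 higher and 3 lower. From 1 to 2 Mb the share was 3 of 25 (12%), each lower, and from 2 to 5 Mb 5 of 23 (21.7%), each higher. From 5 to 10 Mb it was 12 of 68 (17.6%), from 10 to 20 Mb 33 of 162 (20.4%) and beyond 20 Mb on chromosome 8 71 of 490 (14.5%). On other chromosomes 1695 of 14613 genes (11.6%) were past it.

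**Figure D4:**
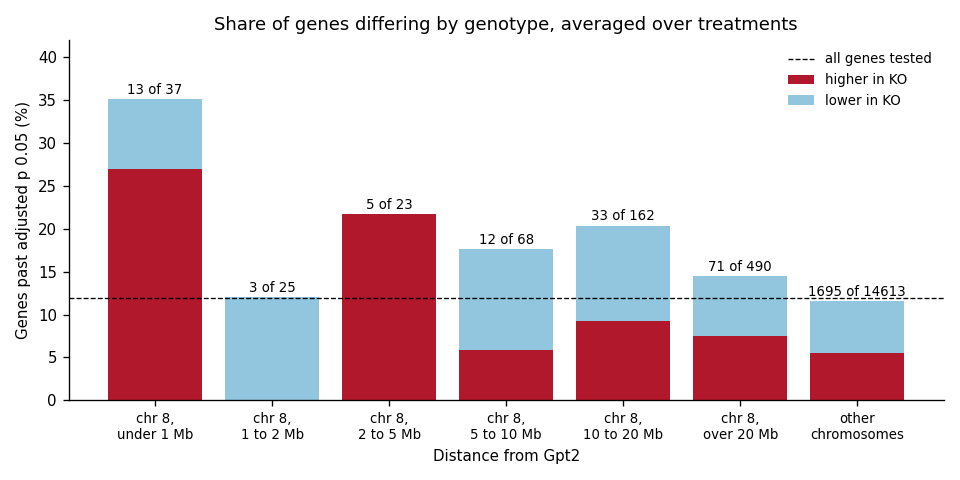
Percent of fitted genes past an adjusted p of 0.05 between knockouts and wild types, averaged over treatments, by distance from Gpt2, split into genes higher and lower in knockouts. Bars start at 0, labels give the counts, and the dashed line marks all 16255 genes (11.9%). The share was 35.1% under 1 Mb and 11.6% on other chromosomes.

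Within 5 Mb, Gpt2 left aside, 21 of 85 genes (24.7%) were past the threshold. The listed genes held 18 of these 21. Of the 45 fitted genes in the window that are not on the list, 3 were past it (6.67%), 2 higher and 1 lower in knockouts. The lower one was Zswim4 with -0.26 (SE 0.08). Before Gpt2 17 of 62 genes were past the threshold and after it 4 of 23, and the listed genes among them numbered 14 and 4. Within 5 Mb the listed genes stop at Il15, 3.09 Mb before Gpt2, and Cyld, 3.17 Mb after it, with averaged log2 differences of 1.18 (SE 0.16) and 0.06 (SE 0.10). The next genes outward with known names, Inpp4b 3.36 Mb before and Sall1 3.50 Mb after, had -0.62 (SE 0.24) and -0.40 (SE 0.20), and neither was past the threshold.

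**Figure D5:**
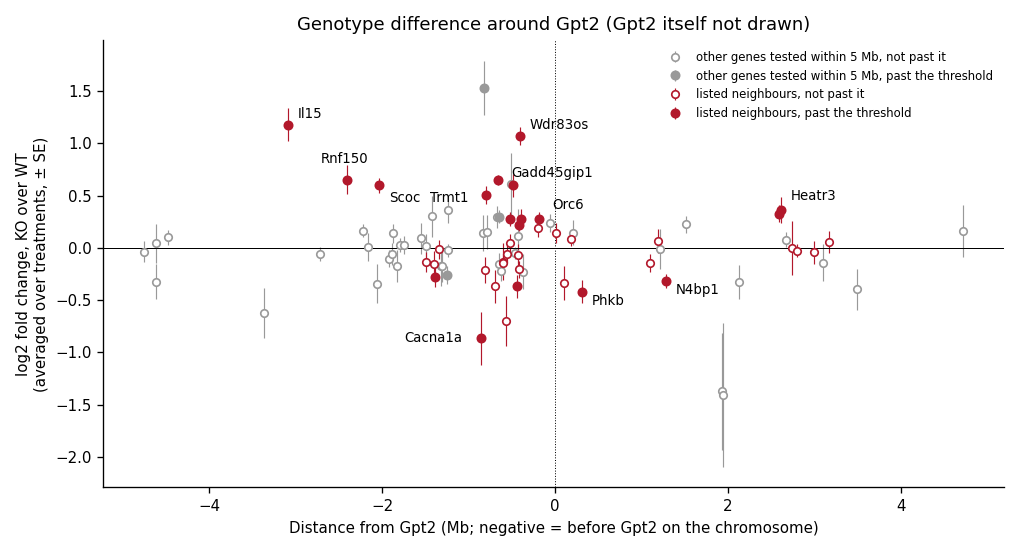
Averaged log2 fold change of knockouts over wild types (± SE) of every fitted gene within 5 Mb of Gpt2, against its distance from Gpt2 in Mb; Gpt2 itself is not drawn. Red points are listed neighbours and grey points other genes, filled where past the threshold. Of the filled points 17 lie before Gpt2 and 4 after it.

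The effect of dm-αKG was not part of how the genes were chosen, and it was tested. No neighbour passed the test for dm-αKG against vehicle in either genotype, and none passed the test of a different response in knockouts and wild types. In knockouts, edgeR's quasi-likelihood test called 0 of the 40 genes (0% of all genes), with 2 of the 40 and 1973 of all genes at an unadjusted p under 0.05. In wild types it called 0 of 40 (0% of all genes), with 5 of the 40 and 1389 of all genes at an unadjusted p under 0.05. For the interaction it called 0 of 40 (0% of all genes), with 0 of the 40 and 729 of all genes at an unadjusted p under 0.05. DESeq2 also called 0 of the 40 in each of these 3 tests.

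The smallest adjusted p of a neighbour in edgeR's test belonged to Gadd45gip1, whose log2 difference between dm-αKG and vehicle was 0.28 (SE 0.07) in knockouts (adjusted p = 0.214) and 0.19 (SE 0.07) in wild types (adjusted p = 0.395). A miss of the threshold does not show that the levels were equal, and the intervals give the sizes that remain possible. With dm-αKG the 95% interval of the log2 difference was -0.15 to 0.30 in knockouts and -0.05 to 0.42 in wild types for Wdr83os. For Il15 it was -0.47 to 0.37 in knockouts and -0.53 to 0.41 in wild types, and for Scoc -0.12 to 0.27 and -0.19 to 0.21. The largest differences by size were 0.64 (SE 0.38) for Adcy7 in knockouts and -0.36 (SE 0.16) for Hook2 in wild types. For the interaction the 95% interval was -0.43 to 0.22 for Wdr83os, -0.12 to 0.28 for Gadd45gip1, -0.21 to 0.34 for Scoc and -0.60 to 0.63 for Il15.

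In the same libraries a list of 20 target genes of ATF4 had 15 past the threshold averaged over treatments, all higher in knockouts, with a mean log2 CPM over the list of 4.33 ± 0.2204 in dm-αKG knockouts, 4.497 ± 0.298 in vehicle knockouts, 3.25 ± 0.117 in dm-αKG wild types and 3.35 ± 0.0877 in vehicle wild types (SD, n = 8, 10, 8 and 10). Knockout libraries differ among themselves in this score, and this variation was not used to choose the neighbours. Over the 18 knockout libraries, each centred on its group mean, the score was compared with each of the 18 neighbours past the averaged threshold. None of these 18 relations passed correction (two-sided permutation test with 100000 resamples, Benjamini-Hochberg over 18). Trmt1 came closest, with Pearson's r = 0.58 (permutation p = 0.0238, adjusted p = 0.254) and Spearman's rho = 0.56 (permutation p = 0.0313, adjusted p = 0.408), and r = 0.46 without the 2 libraries farthest from the median score. For the 4 genes that held in every fit, r was -0.16 for Wdr83os (permutation p = 0.534, adjusted p = 0.772), 0.05 for Gadd45gip1 (permutation p = 0.837, adjusted p = 0.886), -0.13 for Scoc (permutation p = 0.601, adjusted p = 0.772) and -0.00 for Il15 (permutation p = 0.988, adjusted p = 0.988).

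The cerebellum score was set against the same 18 genes in the same way, and none passed correction either. Cacna1a gave r = 0.73 (permutation p = 0.0087, adjusted p = 0.0579) with rho = 0.24 (permutation p = 0.357, adjusted p = 0.582). Without the 2 libraries farthest from the median its r was -0.04, so the relation rests on them. Rnf150 gave r = -0.68 (adjusted p = 0.0579 by permutation) and -0.26 without those 2 libraries, and Tnpo2 r = -0.65 (adjusted p = 0.0579 by permutation) and -0.47. For Gadd45gip1 and Wdr83os r was 0.08 and -0.23 (permutation p = 0.741 and 0.383).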

How the data were processed

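The 36 brain libraries were grouped by genotype and treatment from the labels. Per the labels' protocols, polyadenylated RNA was captured with an oligo-dT primer that carries a molecular identifier. Trim Galore 0.6.10, HISAT2 2.2.1, SAMtools 1.6 and featureCounts 2.0.6 are named, without their settings, per the submitters' processing notes, which list builds mm10 and mm39; no source ties a build to the counts, and positions are those of GENCODE for GRCm38, matched by symbol. The authors deposited estimated counts per gene, rounded to whole numbers, and CPM values in a separate table, which was used for the alternatives. From the deposited CPM, 85.6% to 88.7% of a library's genes came out as whole reads (within 0.02), so the rest hold fractions of reads. No molecular identifier step is named, so whether the counts are of single molecules or of reads is not known. The design treats counts as rounded estimates.

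Counts were fitted with edgeR 4.0.16 (R 4.3.3): TMM scaling, filterByExpr, robust quasi-likelihood test, 4 groups, no covariate, Benjamini-Hochberg over 16255 genes, threshold 0.05. Levels are TMM-scaled CPM; log2 values for scores had a prior count of 2. The fit was tested on simulated counts. Alternatives, run for each comparison, were other scalings, no filter, DESeq2 1.42.0, limma 3.58.1 on log2(CPM + 0.5) and log2(CPM + 2), fewer groups, brain region scores or sex markers as covariates, a replicate block, other windows, and leaving out each library. Among 146 pairs of libraries within groups none was identical or within sampling noise. Numbers shared between groups were not used as pairs in the main fit, because no label ties them. Correlations of same-numbered libraries ran from -0.65 to 0.80. Their median was 0.35 between dm-αKG knockouts and dm-αKG wild types and lay between -0.14 and 0.22 for the other pairs of groups. Libraries with different numbers were not set beside these, so whether the numbers pair libraries was not tested. Neighbours are named when past the threshold in a genotype comparison, among the 3 nearest to Gpt2 on either side, or among the 3 with the largest uncalled differences of at least 5 CPM; the others get their difference alone. The neighbours, marker lists, motifs and tests were chosen with earlier results of these data known. Some results on genes outside the list are not reported here.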

Additional observations from a re-analysis of the deposited data

Results flagged for a closer look

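Over the 25 genes with values by group, Gpt2 and 24 neighbours, 10 of 100 groups held a library apart from the others by Dixon's criterion, where chance alone marks about 1 in 20 groups. All values are TMM-scaled CPM. In dm-αKG knockouts, library 5 had 135 for Scoc, with the nearest other library at 105, and library 7 had 95.03 for Cacna1a, with the nearest at 54.4. In vehicle knockouts, library 7 had 198 for Cacna1a, with the nearest at 81.8, and library 6 had 143 for Vps35, with the nearest at 108, and 211 for Dnaja2, with the nearest at 172. In dm-αKG wild types, library 1 had 30.03 for Nacc1, with the nearest at 22.2. In vehicle wild types, library 1 had 187 for Prdx2, with the nearest at 150.2, 15.3 for Heatr3, with the nearest at 7.89, and 318 for Dnaja2, with the nearest at 168. Library 3 of the same group had 107 for Itfg1, with the nearest at 89.4. The source of these values was not tested.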

How the results depend on the processing

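Counts of neighbours past the threshold were 18 averaged over treatments, 5 under dm-αKG and 10 under vehicle, and 21 genes within 5 Mb. Over all 16255 genes the 3 comparisons gave 1930, 304 and 701, and these counts moved with the setting too. Under vehicle the count was 6 with library totals as the only scaling, where 256 of 16255 genes were past the threshold. It was 6 with limma on log2(CPM + 0.5) or log2(CPM + 2), where 188 and 193 of 15915 genes were. Under dm-αKG it was 9 with 5 region scores as covariates and 9 without the 9 libraries high in cerebellum markers. Averaged over treatments limma gave 11 with either pseudocount, each of them higher, and 12 genes within 5 Mb. Over all 15915 genes limma gave 1002 with log2(CPM + 0.5) and 1000 with log2(CPM + 2). A window of 10 Mb held 33 genes past the threshold among 153 fitted. The causes of these moves were not tested. Leaving out 1 library at a time gave 14 to 19 averaged, 5 to 5 under dm-αKG, 8 to 11 under vehicle and 16 to 27 in the window. Over all genes these fits gave 1455 to 2947 averaged, 133 to 362 under dm-αKG and 440 to 1662 under vehicle. With the replicate block the counts were 16, 5, 10 and 18, and over all genes 1888 averaged, 325 under dm-αKG and 623 under vehicle. No label ties libraries that share a replicate number. The tests of dm-αKG and of the interaction called 0 neighbours under every setting run. No difference past the threshold changed sign. The median log2 difference of all genes under dm-αKG was 0.14 with library totals, 0.14 with log2(CPM + 0.5) and 0.098 with log2(CPM + 2). Il15, which rests on few reads, had the widest range over settings among the 4 genes past the threshold throughout, 0.48 to 1.58 under dm-αKG and 0.41 to 1.22 under vehicle, lowest with log2(CPM + 2) and highest without the 9 libraries high in cerebellum markers; the cause was not tested.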
